A study of Mus musculus with 12 samples.

Results

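The subunits of the respiratory chain and of ATP synthase that are encoded in the nucleus were examined in the left ventricular muscle of 12 C57BL/6 mice (C57BL/6J in the methods of the study). The members were chosen by gene name from the deposited table: protein-coding genes named Nduf (without the Ndufaf assembly factors), Sdha to Sdhd, Uqcr, Cyc1, Cox4 to Cox8 and Atp5. This gave 87 of the 18079 genes in the table. Male mice underwent descending aortic banding (AB), which narrows the aorta and loads the left ventricle with pressure, or a sham operation without the band. Hispidulin, a plant flavone, was given at 20 mg/kg/day by a daily injection into the abdominal cavity that began on the eve of the operation, and control mice received the solvent DMSO alone. This gave 4 groups of 3 mice: DMSO+Sham and DMSO+AB, and with hispidulin Hispidulin+Sham and Hispidulin+AB, all operated at 8 weeks of age and examined 4 weeks later, at 12 weeks. Whole muscle was used and each mouse gave 1 library, so the values stand for a mixture of cells, and fewer cells of a type cannot be told apart from less RNA per cell. The authors deposited FPKM, fragments scaled to transcript length and to the size of the library, which is per length and so allows levels to be compared between genes. Differences are given on the log2(FPKM + 1) scale from limma with 1 model for all 12 mice, each ± SE, and a gene was called when its Benjamini-Hochberg adjusted p over the 11664 genes tested was under 0.05.

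The respiratory chain passes electrons from NADH and succinate to oxygen and pumps protons across the inner mitochondrial membrane. Complex I (the Nduf genes) accepts electrons from NADH, complex II (the Sdh genes) from succinate, complex III (the Uqcr genes and Cyc1) hands them to cytochrome c, and complex IV (the Cox genes) reduces oxygen. ATP synthase (the Atp5 genes) uses the returning protons to make ATP, most of which heart muscle spends on contraction and calcium pumping. Core subunits hold the cofactors or catalytic sites, and accessory subunits stabilise the complexes. Several complex IV subunits have a form found in heart and skeletal muscle and a form found in most tissues. A few further subunits of complexes I, III and IV and of ATP synthase are encoded in the mitochondrial genome, and 0 genes of that genome were in the table. Ndufb1 and Cox8c were not analysed here.

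Of the 87 members, 85 had 1 FPKM or more in 3 or more mice. The other two were Cox7b2, with at most 0.85 FPKM in any mouse, and Ndufb4b, which was listed at 0 in 9 of the 12 mice. Ndufb4b and Ndufb4c are close copies of Ndufb4, so the division of reads among these genes is uncertain. The members took 12.0% to 14.8% of the summed FPKM. They made up 14.1% ± 0.525 (SD, n = 3) in DMSO+Sham and 14.1% ± 0.559 in Hispidulin+Sham. After AB they made up 12.4% ± 0.505 with DMSO and 13.3% ± 0.677 with hispidulin, so that the 3 DMSO+AB mice, at 12.0% to 13.0%, lay below all 6 sham-operated mice. The median member had a mean of 679.1 FPKM over all mice, and 26 members exceeded 1000. The most abundant member was Atp5b, the catalytic beta subunit of ATP synthase (3711 FPKM), followed by the muscle form Cox6a2 (2948) and by Cox4i1 (2820.3), the common form of the complex IV subunit that senses ATP. Within complex I the means ran from 108 for Ndufa11 to 1231 for Ndufb9, within complex II from 315 for Sdhd to 922 for Sdhb, and within complex III from 404 for Uqcrq to 1221 for Uqcr11. The lowest were Cox6b2 (1.68), a form of Cox6b best known from testis, Cox4i2 (13.2), a form of Cox4 best known from lung, and Ndufa4l2 (21.4), a hypoxia-inducible relative of Ndufa4.

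The libraries were alike in most respects. Summed over genes, each mouse had 535235 to 567027 FPKM, and the Spearman correlations between mice of a group ran from 0.968 to 0.986. Read counts were not analysed here, so depth and counting error are unknown. Banding was visible in each mouse in the summed FPKM of Nppa, Nppb, Myh7 and Acta1, genes that heart muscle turns on under load. The sum was 452.0 to 1566 in the sham-operated mice, 4311, 12735 and 16341 in DMSO+AB and 3818, 6335 and 5099 in Hispidulin+AB. Taken singly, Nppb and Acta1 were higher in every AB mouse than in every sham-operated mouse. Nppa and Myh7 overlapped: Nppa was at 967 FPKM in Hispidulin+Sham 3 and 680 in DMSO+AB 1, and Myh7 at 185 in DMSO+Sham 3 and 95.9 in DMSO+AB 1. Cardiomyocyte marker genes summed to 36118 to 53244 FPKM in all mice, and skeletal muscle markers to at most 0.15. One feature touched the members directly. In the third DMSO+AB mouse, genes with an AT-rich transcript were low: the deviation of the members from their median over the 12 mice correlated with the GC content of the transcript (Spearman rho = 0.43 over 84 members, and 0.61 over 11520 genes). The 11 members with a GC content under 45% had a median deviation of -0.32 in this mouse on the log2 scale, and the 39 members with at least 52% had -0.021. In all, 11 members lay at least 0.3 below the mean of the other two DMSO+AB mice, of which 3 had a GC content under 45%. In the third Hispidulin+Sham mouse the relation ran the other way, with a rho of -0.54 over the members. That mouse also held the most atrial marker RNA (Myl7, Myl4 and Sln summed to 773.9 FPKM, against 2.53 to 172.0 elsewhere). Differences from DMSO+AB were therefore also taken without the third DMSO+AB mouse, and are given so for the subunits described in most detail.

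**Figure D1:**
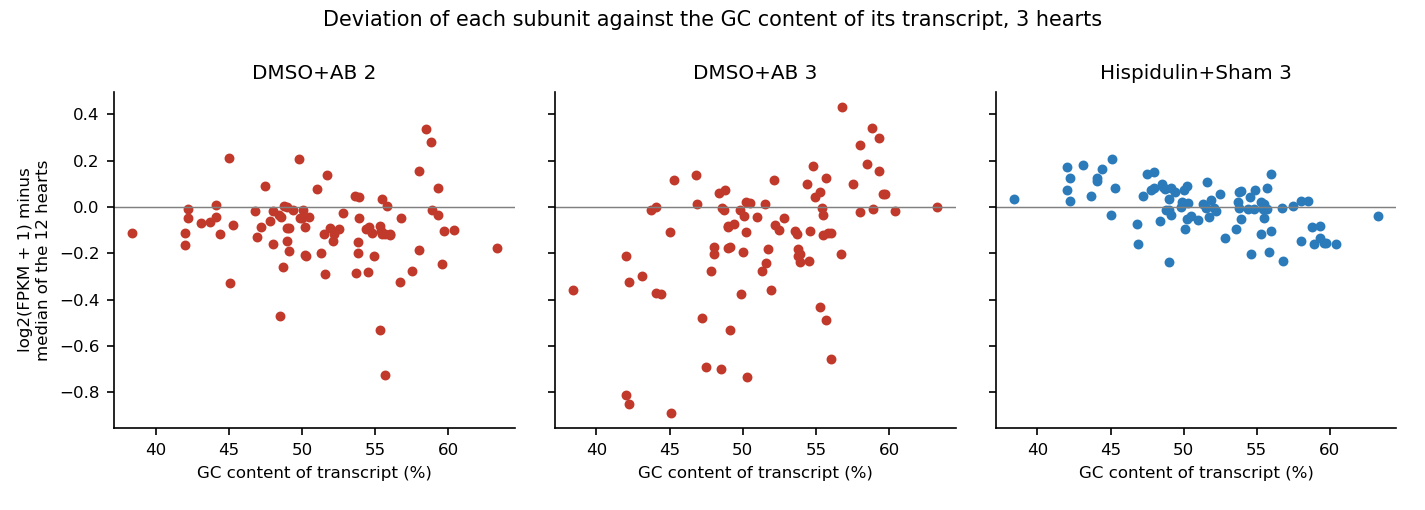
Each point is 1 of 84 members, with the GC content of its transcript (%) on the x axis and its log2(FPKM + 1) minus the median of the 12 hearts on the y axis, for 3 hearts. In DMSO+AB 3 the members of low GC content lie lowest (rho = 0.43), in Hispidulin+Sham 3 the slope is the reverse (rho = -0.54), and in DMSO+AB 2 there is little slope (rho = -0.095).

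Whether the subunits differed under pressure overload was asked first in the mice given DMSO. Compared with DMSO+Sham, 67 of the 85 members were lower and 18 higher in DMSO+AB, with a median log2 difference of -0.14 against -0.035 over all genes tested. The flavoprotein of complex II (Sdha), the muscle form of a complex IV subunit (Cox7a1), Cox6b2 and the beta subunit of ATP synthase (Atp5b) fell by 0.67, 0.49, 0.77 and 0.33. These 4 members were called, all lower. They are 4.71% of the members, against 2.71% of all genes called lower and 5.21% called in either direction. Among members with a mean of at least 100 FPKM, 3 of 81 were called (3.7%), against 5.05% of the 732 genes tested at that level, so the share called was near the background. An unadjusted p under 0.05 was found for 20 members (23.5%), against 20.4% of all genes. Among those with a mean of at least 100 FPKM it was found for 19 of 81 members (23.5%), a smaller share than the 32.5% of genes at that level. The groups were more often separate than called: in 36 members (42.4%) all 3 DMSO+AB mice lay below all 3 DMSO+Sham mice, against 10.8% of all genes tested. At a mean of at least 100 FPKM these were 35 of 81 members (43.2%), against 126 of 732 genes (17.2%). In 1 member, Cox6a1, all 3 lay above (7.18% of all genes). The typical member thus had a small difference, and its spread within a group was of the same order, with a median SD of 0.088 in DMSO+Sham and 0.093 in DMSO+AB on the log2 scale. The 4 calls depended on single libraries. The count was 0 without the first DMSO+Sham mouse, 2 without the third, 0 without the second DMSO+AB mouse and 1, Sdha, without the third DMSO+AB mouse. Without the third DMSO+Sham mouse, in which members were low, 78 members were lower with a median of -0.18, and 11 members changed sign.

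**Figure D2:**
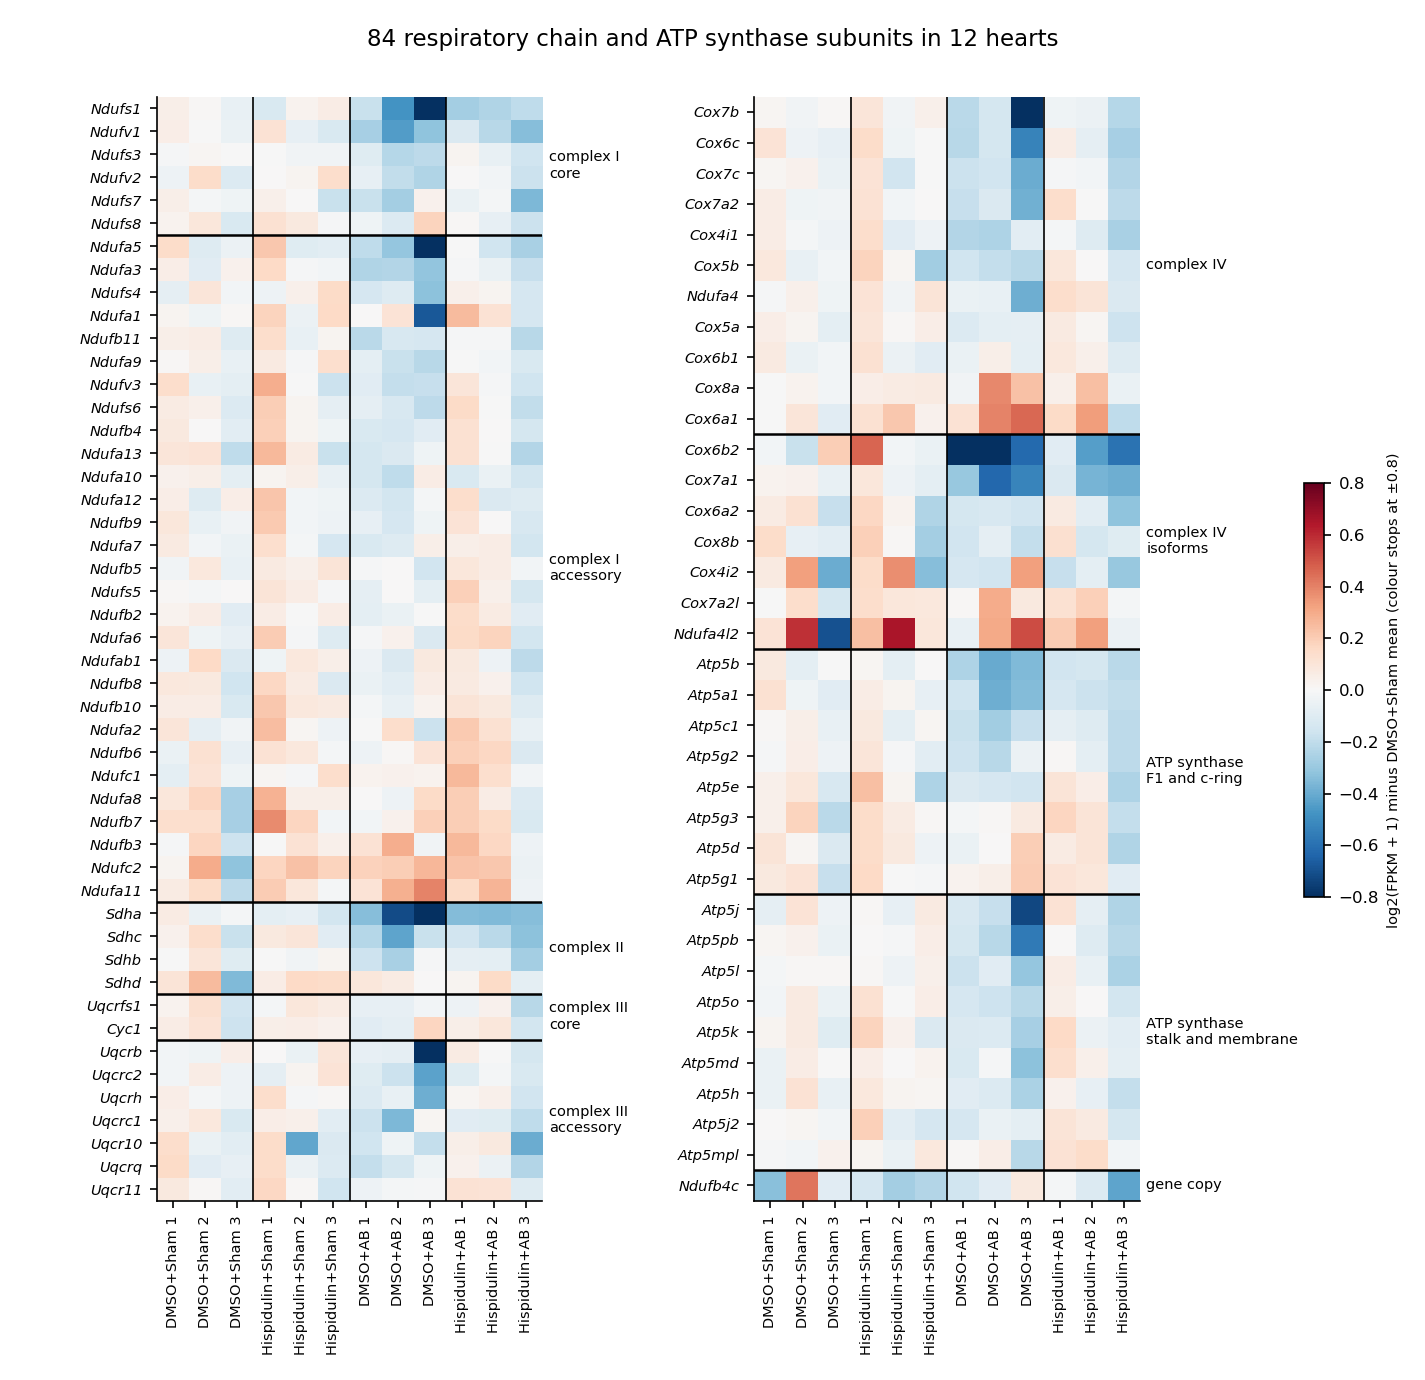
Each row is 1 of 84 members tested and each column 1 heart, with colour for log2(FPKM + 1) minus the DMSO+Sham mean of that gene (blue lower, red higher, colour stops at ±0.8). The rows are grouped by complex and sorted by the change in DMSO+AB, and the dark cells of DMSO+AB 3 are members low in that mouse, such as Ndufs1, Uqcrb and Cox7b.

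In complex I the 7 core subunits, which carry the flavin and the iron-sulphur clusters, were lower by a median of -0.18 in DMSO+AB, and 6 of 7 were lower. The 29 accessory subunits had a median of -0.053, with 22 lower and 7 higher. None of the 36 was called in this comparison. An unadjusted p under 0.05 was found for 6 of the 36, against 20.4% of all genes and 32.5% of those with a mean of at least 100 FPKM. Ndufs1, the largest core subunit, was at 319, 310.2 and 296 FPKM in the DMSO+Sham mice, 283, 314 and 321 in the Hispidulin+Sham mice, 272, 221 and 149 in the DMSO+AB mice and 255, 261 and 268 in the Hispidulin+AB mice. All 6 AB mice lay below all 6 sham-operated mice, and the third DMSO+AB mouse was by far the lowest. The difference in DMSO was -0.57 ± 0.17 (SE) (adjusted p = 0.0728), and -0.33 without that mouse. Ndufv1, which binds the flavin that takes electrons from NADH, was at 679, 653 and 629 FPKM in the DMSO+Sham mice, 709, 624 and 600.5 in the Hispidulin+Sham mice, 544, 479.7 and 523 in the DMSO+AB mice and 603, 559 and 515 in the Hispidulin+AB mice. Here the second DMSO+AB mouse was the lowest, and the DMSO groups did not overlap (-0.34 ± 0.09 (SE), adjusted p = 0.058). Ndufs3, Ndufv2, Ndufs7 and Ndufs8 differed by -0.18, -0.17, -0.14 (-0.22 without the third DMSO+AB mouse) and 0.01 (-0.072 without that mouse and -0.048 without the third DMSO+Sham mouse) in that order, and none of them was called.

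Among the accessory subunits the ends of the range were Ndufa5 (-0.45, adjusted p = 0.126, and -0.26 without the third DMSO+AB mouse) and Ndufa11 (0.26, adjusted p = 0.26, and 0.20 without that mouse). Ndufa5 was at 867, 729 and 758 FPKM in the DMSO+Sham mice and 680.0, 631 and 439 in the DMSO+AB mice, and Ndufa11, a membrane subunit, at 103, 109 and 85.03 in DMSO+Sham and 106, 120.3 and 129.9 in DMSO+AB. The first of these pairs was separate and the second overlapped, with Ndufa11 lowest in the third DMSO+Sham mouse. The mean log2(FPKM + 1) of the core subunits minus that of the accessory subunits was taken as 1 value in each mouse. It was -0.054, -0.051 and -0.0033 in the DMSO+Sham mice, -0.17, -0.061 and -0.064 in Hispidulin+Sham, -0.13, -0.29 and -0.22 in DMSO+AB and -0.23, -0.20 and -0.14 in Hispidulin+AB. The group means were -0.036 ± 0.029 (SD, n = 3), -0.098 ± 0.062, -0.21 ± 0.081 and -0.19 ± 0.046 in that order. Core subunits were therefore lower relative to accessory subunits after AB, by -0.18 in the mice given DMSO, whose groups did not overlap, and by -0.091 in those given hispidulin, whose groups did. This is a description and was given no test.

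In complex II, Sdha alone was called, so the count is of 1 gene, against 2.71% of all genes called lower and 5.05% of those with a mean of at least 100 FPKM. Sdha, which oxidises succinate and also serves the citric acid cycle, was at 699.7, 644 and 659.8 FPKM in the DMSO+Sham mice, 633, 637 and 603 in the Hispidulin+Sham mice, 527, 406 and 347 in the DMSO+AB mice and 526, 523 and 527 in the Hispidulin+AB mice. All AB mice were below all sham-operated mice, the 3 Hispidulin+AB mice were nearly equal, and DMSO+AB 2 and DMSO+AB 3 were the lowest. Between the DMSO groups the difference was -0.67 ± 0.12 (SE) (adjusted p = 0.0147), and it was -0.53 without the third DMSO+AB mouse. Sdhc, a membrane anchor with part of the haem site, was at 551, 594 and 475 FPKM in DMSO+Sham and at 459.9, 401 and 475 in DMSO+AB (-0.28 ± 0.11 (SE), adjusted p = 0.167). Sdhb, the iron-sulphur subunit, differed by -0.15 and Sdhd, the other anchor, by 0.05 (-0.12 without the third DMSO+Sham mouse), and in both the groups overlapped. The 4 subunits stand in equal numbers in the complex, and their mean levels over all mice ran from 315 to 922 FPKM.

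In complex III 8 of the 9 subunits were lower in DMSO+AB, and none was called. The nuclear core subunits, cytochrome c1 (Cyc1) and the Rieske iron-sulphur protein (Uqcrfs1), differed by 0.0033 and -0.05. Cyc1 differed by -0.081 without the third DMSO+AB mouse, when all 9 subunits were lower, and by -0.081 without the third DMSO+Sham mouse. Uqcrfs1 was at 810, 871 and 714 FPKM in DMSO+Sham, lowest in that same mouse, and at 760, 761 and 783 in DMSO+AB. The 7 accessory subunits ranged from -0.34 for Uqcrb to -0.02 for Uqcr11. Uqcrb, which lies next to the ubiquinone site, was at 924, 915 and 972 FPKM in DMSO+Sham and at 893, 891 and 509 in DMSO+AB. The groups were separate, but the third DMSO+AB mouse was far below the other two, and the difference was -0.34 ± 0.18 (SE) (adjusted p = 0.302) with it and -0.070 without it. Uqcrc2, a core-protein scaffold, was at 622, 656 and 615 FPKM in DMSO+Sham and 589.8, 559.8 and 468 in DMSO+AB, and its groups did not overlap (-0.23 ± 0.10 (SE), adjusted p = 0.199, and -0.13 without the third DMSO+AB mouse).

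**Figure D3:**
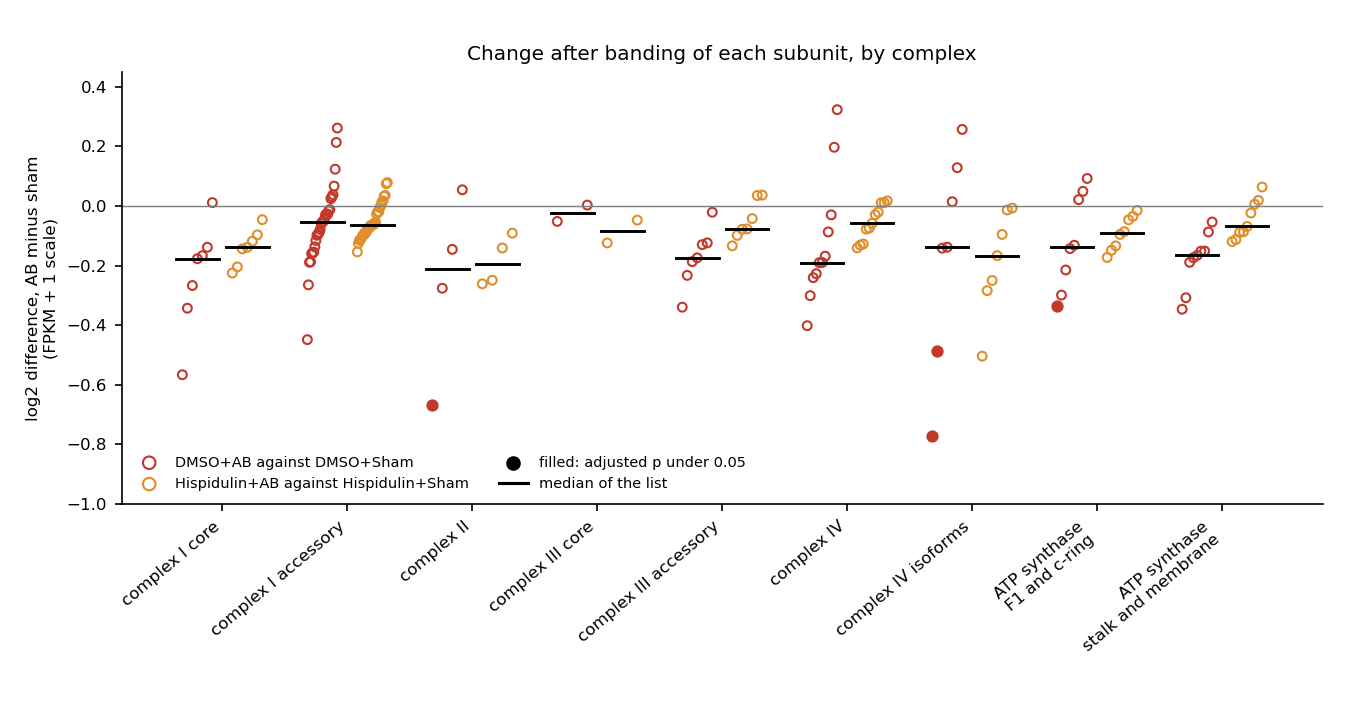
The y axis gives the log2 difference between AB and sham for each member on the FPKM + 1 scale, in the mice given DMSO (red) and in those given hispidulin (orange), by complex on the x axis. Filled points have an adjusted p under 0.05 (Sdha, Cox7a1, Cox6b2 and Atp5b, in DMSO), and black bars are medians of each list, which are below 0 for each complex in both.

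Complex IV held members at both ends of the range, Cox6b2 and Cox6a1. Of its 11 general subunits, 9 were lower and 2 higher in DMSO+AB, with a median of -0.19. Cox7b was at 601, 583 and 599 FPKM in DMSO+Sham and at 511, 538 and 331 in DMSO+AB. The groups were separate, and the difference of -0.40 (adjusted p = 0.156) was -0.18 without the third DMSO+AB mouse. Cox4i1 differed by -0.19. The 2 that were higher were Cox6a1 and Cox8a, common forms that have a muscle counterpart. Cox7a2, a further common form with such a counterpart, was lower (-0.23, adjusted p = 0.249, and -0.15 without the third DMSO+AB mouse). Cox6a1 was at 198, 212 and 187 FPKM in the DMSO+Sham mice, 217, 231 and 203 in the Hispidulin+Sham mice, 215, 263 and 274 in the DMSO+AB mice and 221, 251 and 173 in the Hispidulin+AB mice. It was the only member with all 3 DMSO+AB mice above all 3 DMSO+Sham mice (0.32 ± 0.14 (SE), adjusted p = 0.206), and Hispidulin+AB overlapped each of the other groups. Cox8a differed by 0.20 (adjusted p = 0.336). It was at 318, 325 and 314 FPKM in DMSO+Sham and at 313, 417 and 375 in DMSO+AB, so the groups overlapped. Without the third DMSO+AB mouse Cox6a1 differed by 0.26 and Cox8a by 0.18.

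The muscle forms were compared next. Cox7a1, the heart and muscle form of a subunit at the interface where complex IV forms dimers, was at 2006, 2019 and 1888 FPKM in the DMSO+Sham mice, 2099, 1916 and 1867 in the Hispidulin+Sham mice, 1599, 1273 and 1367 in the DMSO+AB mice and 1817, 1520.1 and 1505 in the Hispidulin+AB mice. All 6 AB mice were below all 6 sham-operated mice. In DMSO the difference was -0.49 ± 0.11 (SE) (adjusted p = 0.0266), and -0.47 without the third DMSO+AB mouse. Cox6a2 was at 3209.8, 3345 and 2699 FPKM in DMSO+Sham and 2792, 2805 and 2758 in DMSO+AB (-0.14, adjusted p = 0.575), and Cox8b at 1805, 1562 and 1542 and 1467, 1555 and 1430.3 (-0.14, adjusted p = 0.564). The DMSO groups of both overlapped. Among these mice Cox6a2 was lowest in the third DMSO+Sham mouse and Cox8b highest in the first. Cox6b2 was called, but at a low level. It was at 2.03, 1.73 and 2.54 FPKM in the DMSO+Sham mice, 3.26, 2.03 and 1.97 in the Hispidulin+Sham mice, 0.73, 0.70 and 1.00 in the DMSO+AB mice and 1.89, 1.27 and 1.05 in the Hispidulin+AB mice, with all DMSO+AB mice below all DMSO+Sham mice (-0.77 ± 0.18 (SE), adjusted p = 0.0305). Cox4i2 differed by 0.01 (-0.14 without the third DMSO+AB mouse and -0.18 without the third DMSO+Sham mouse), Ndufa4l2 by 0.26 (0.12 and -0.090 in that order) and Cox7a2l, a relative of Cox7a2, by 0.13. None of these 3 was called. Cox7a2l was at 235, 260 and 214 FPKM in DMSO+Sham and at 237, 290 and 249 in DMSO+AB, where the second mouse was the highest.

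A ratio between the forms of a subunit cancels what affects both alike, such as the amount of heart muscle RNA when both come from the same cells. The log2 ratio of FPKM + 1 was therefore taken in each mouse for 7 pairs, and AB was compared with sham by an exact two-sided permutation test with labels exchanged within the DMSO mice and within the hispidulin mice, for which 400 arrangements give a smallest p of 0.005. Cox7a1 to Cox7a2 passed. In FPKM the ratio was 4.18, 4.49 and 4.19 in the DMSO+Sham mice, 4.21, 4.23 and 4.05 in Hispidulin+Sham, 3.95, 3.00 and 3.88 in DMSO+AB and 3.59, 3.31 and 3.79 in Hispidulin+AB. All AB mice were below all sham-operated mice, by -0.24 on the log2 scale (exact permutation p = 0.005, the smallest possible, and 0.0175 adjusted over the 7 pairs). This difference was -0.26 among the mice given DMSO and -0.23 among those given hispidulin, and after AB the treatments differed by -0.0093 (exact p = 1, 3 against 3, for which the smallest p is 0.1). With the animal number series added to the strata the difference was -0.22 and its exact p was 0.0556.

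Cox6a2 to Cox6a1 was 16.2, 15.7 and 14.5 in DMSO+Sham, 15.9, 13.5 and 12.8 in Hispidulin+Sham, 13.0, 10.7 and 10.1 in DMSO+AB and 14.6, 11.6 and 14.2 in Hispidulin+AB. The DMSO groups were separate (-0.46, exact p = 0.1, the smallest possible), the hispidulin groups overlapped (-0.066, exact p = 0.7), and over both the difference was -0.27 (exact permutation p = 0.045, adjusted 0.105). Without any 1 mouse this difference was -0.32 to -0.21, and its exact p was 0.05 or more without each mouse other than Hispidulin+Sham 3, DMSO+AB 1, Hispidulin+AB 1 and Hispidulin+AB 3. Cox8b to Cox8a differed by -0.34 in DMSO, where the groups were separate, by -0.024 in hispidulin, and by -0.18 over both (exact permutation p = 0.175, adjusted 0.245). After AB the treatments differed by 0.26 in the Cox6a ratio and by 0.22 in the Cox8 ratio (exact p = 0.2 for each). The Cox4i2 to Cox4i1 and Ndufa4l2 to Ndufa4 ratios were under 0.02 in each mouse and did not pass (adjusted exact permutation p = 0.775 and 0.723).

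**Figure D4:**
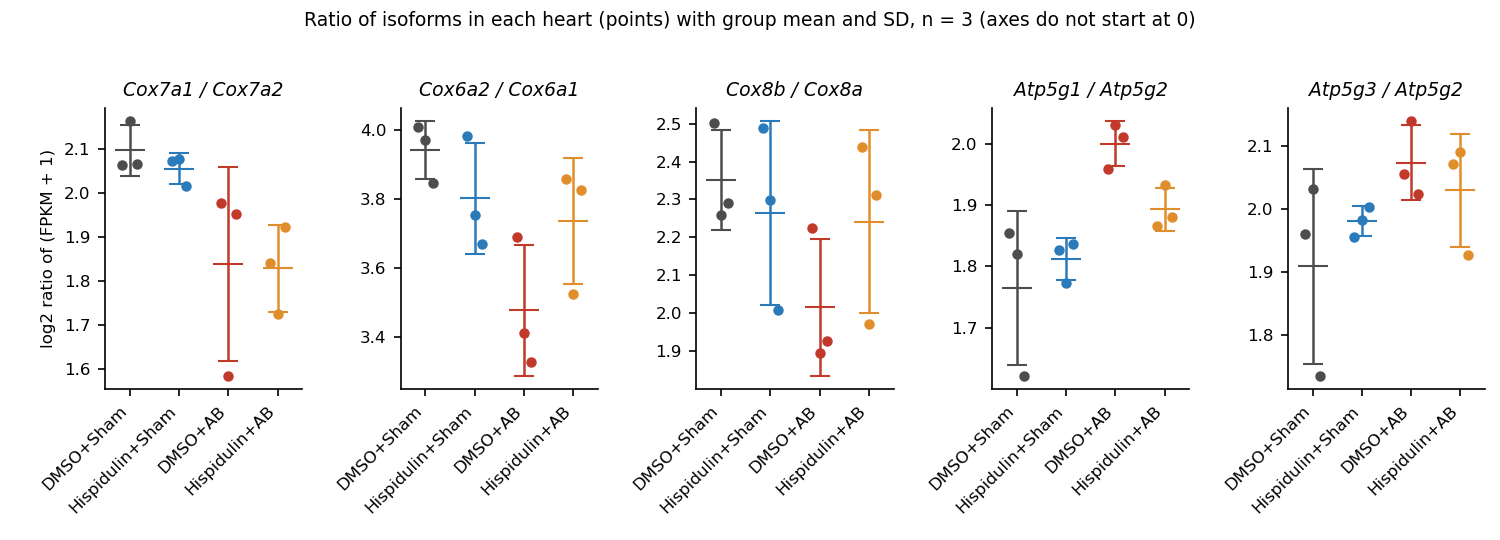
Each point is the log2 ratio of FPKM + 1 between 2 forms of a subunit in 1 heart (y axis), by group (x axis), with bars for the mean and SD of 3 mice and y axes that do not start at 0. Cox7a1 to Cox7a2 is lower in all AB mice than in all sham-operated mice, and Atp5g1 to Atp5g2 is higher in all AB mice.

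The stretch upstream of the start of each gene is shown for the forms whose ratios could be compared with a sequence, since the forms of a pair are transcribed from different promoters. The windows are from RefSeq on GRCm38.p6, 250 bases before to 50 bases after the start, 5′ to 3′ on the strand of the gene. Cox7a1 is at chr7:30183921-30184220 (plus strand), Cox7a2 at chr9:79759804-79760103 (minus strand), Cox8b at chr7:140900397-140900696 (minus strand), Cox8a at chr19:7217567-7217866 (minus strand), Atp5g1 at chr11:96075582-96075881 (minus strand) and Atp5g2 at chr15:102670998-102671297 (minus strand). Capitals mark matches on either strand to 5 searched motifs: CCGGAAG (ETS factors), GCGCATGCG (NRF1), AAGGTCA (oestrogen-related receptors), AAGATGGCG (YY1) and CAGCTG (an E-box of muscle factors).
Cox7a1: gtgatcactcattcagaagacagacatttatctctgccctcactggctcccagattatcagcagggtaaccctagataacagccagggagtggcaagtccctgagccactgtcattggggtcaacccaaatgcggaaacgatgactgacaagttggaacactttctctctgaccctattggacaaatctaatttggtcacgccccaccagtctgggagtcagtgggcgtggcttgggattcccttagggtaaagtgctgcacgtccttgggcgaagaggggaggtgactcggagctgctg
Cox7a2: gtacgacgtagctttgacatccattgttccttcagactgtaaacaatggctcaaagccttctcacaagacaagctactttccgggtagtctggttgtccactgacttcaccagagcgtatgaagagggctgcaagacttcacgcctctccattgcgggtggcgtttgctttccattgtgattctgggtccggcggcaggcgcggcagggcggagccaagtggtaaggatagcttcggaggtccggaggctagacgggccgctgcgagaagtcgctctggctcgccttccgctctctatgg
Cox8b: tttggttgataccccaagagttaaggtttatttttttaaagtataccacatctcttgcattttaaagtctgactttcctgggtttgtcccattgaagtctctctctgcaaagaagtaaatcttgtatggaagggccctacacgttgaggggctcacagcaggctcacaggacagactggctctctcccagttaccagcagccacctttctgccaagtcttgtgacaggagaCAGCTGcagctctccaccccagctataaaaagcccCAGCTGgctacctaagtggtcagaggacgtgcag
Cox8a: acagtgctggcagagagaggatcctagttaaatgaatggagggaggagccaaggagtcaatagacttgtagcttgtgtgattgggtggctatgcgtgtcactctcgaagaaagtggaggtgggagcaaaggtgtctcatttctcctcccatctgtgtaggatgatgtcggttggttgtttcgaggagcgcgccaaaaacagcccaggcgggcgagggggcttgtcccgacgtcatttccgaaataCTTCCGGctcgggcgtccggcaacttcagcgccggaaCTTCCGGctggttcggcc
Atp5g1: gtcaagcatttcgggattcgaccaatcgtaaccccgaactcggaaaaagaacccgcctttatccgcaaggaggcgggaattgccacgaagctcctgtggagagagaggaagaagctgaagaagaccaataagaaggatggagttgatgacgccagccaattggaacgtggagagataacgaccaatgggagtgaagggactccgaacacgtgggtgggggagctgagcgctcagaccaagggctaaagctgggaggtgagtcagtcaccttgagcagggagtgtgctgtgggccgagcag
Atp5g2: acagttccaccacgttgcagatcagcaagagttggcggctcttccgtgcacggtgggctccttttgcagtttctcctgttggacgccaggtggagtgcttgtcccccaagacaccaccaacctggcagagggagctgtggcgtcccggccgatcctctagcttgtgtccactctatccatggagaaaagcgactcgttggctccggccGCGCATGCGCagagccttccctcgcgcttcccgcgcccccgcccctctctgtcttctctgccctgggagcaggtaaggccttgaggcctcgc
The muscle forms were poorer in CpG than the common forms: 7 CpG in the Cox7a1 window against 20 in that of Cox7a2, and 2 in Cox8b against 19 in Cox8a. The median was 19 over the 75 windows found for 70 members and 7 over all windows. Capitals fall on E-boxes in Cox8b, on ETS motifs in Cox8a and on overlapping NRF1 motifs of both strands in Atp5g2, and the windows of Cox7a1, Cox7a2 and Atp5g1 hold none of the 5. Of the 75 windows, 22.7% held the ETS motif, against 8.86% of all 32851 windows. The shares were 10.7% against 1.75% for NRF1, 10.7% against 4.72% for the receptor motif, 9.33% against 1.4% for YY1 and 8% against 16.3% for the E-box. The ETS, NRF1 and YY1 motifs contain CG, and the windows compared were not matched in CpG. A match gives letters only and no binding was measured.

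Of 17 ATP synthase subunits, 14 were lower in DMSO+AB and 1 was called, where 2.71% of all genes and 5.05% of those with a mean of at least 100 FPKM were called lower. Atp5b, which carries the catalytic sites, was at 4272, 3835 and 4035 FPKM in the DMSO+Sham mice, 4093, 3825 and 4045 in the Hispidulin+Sham mice, 3403, 3062 and 3169 in the DMSO+AB mice and 3636, 3674 and 3483 in the Hispidulin+AB mice. Its AB mice were all below its sham-operated mice, and the Hispidulin+AB mice all above the DMSO+AB mice. The difference in DMSO was -0.33 ± 0.08 (SE) (adjusted p = 0.0335). Atp5a1, the alpha subunit of the same head, was at 2448, 2199.9 and 2114 FPKM in the DMSO+Sham mice, 2344, 2287 and 2146 in the Hispidulin+Sham mice, 2017, 1713 and 1770.0 in the DMSO+AB mice and 2050.0, 1994 and 1965 in the Hispidulin+AB mice. It showed the same separation of AB from sham (-0.30 ± 0.09 (SE), adjusted p = 0.0789). The 9 subunits of the stalk and the membrane part were all lower, from -0.35 for Atp5j to -0.05 for Atp5mpl. In 7 of them all 3 DMSO+AB mice were below all 3 DMSO+Sham mice (10.8% of all genes, and 17.2% of those with a mean of at least 100 FPKM). Without the third DMSO+AB mouse 8 of the 9 were lower, and Atp5mpl differed by 0.032. Atp5j, a part of the peripheral stalk, was at 1070.3, 1216 and 1094 FPKM in DMSO+Sham and at 1031, 988 and 679 in DMSO+AB, with a difference of -0.16 without the third DMSO+AB mouse. Atp5g1, Atp5g2 and Atp5g3 encode the same c-ring subunit with different targeting peptides. Atp5g2 differed by -0.14, Atp5g1 by 0.09 and Atp5g3 by 0.02. Without the third DMSO+AB mouse these were -0.19, 0.038 and -0.0030 in that order, and without the third DMSO+Sham mouse Atp5g3 differed by -0.087. The ratio of Atp5g1 to Atp5g2 was 3.62, 3.53 and 3.08 in the DMSO+Sham mice, 3.55, 3.42 and 3.58 in Hispidulin+Sham, 3.89, 4.09 and 4.04 in DMSO+AB and 3.65, 3.82 and 3.69 in Hispidulin+AB. Each AB mouse lay above each sham-operated mouse, by 0.16 on the log2 scale (exact permutation p = 0.005, the smallest possible, and 0.0175 adjusted over the 7 pairs). The ratio of Atp5g3 to Atp5g2 differed by 0.11 (exact permutation p = 0.06, adjusted 0.105).

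The same question was asked in the mice given hispidulin, which share no mouse with the comparison above. Compared with Hispidulin+Sham, 69 of 85 members were lower in Hispidulin+AB, with a median of -0.077 against -0.02 over all genes. Without the third Hispidulin+AB mouse, the lowest of its group, 41 were lower and the median was 0.0020. None was called, as for all genes (0%), and 3 had an unadjusted p under 0.05 (3.53%, against 7.26% of all genes). The 3 were Cox6b2 (-0.50), Cox7a1 (-0.28) and Sdhc (-0.26). In 11 members, 12.9%, all 3 AB mice were below all 3 sham-operated mice, against 11.8% of all genes. At a mean of at least 100 FPKM these were 10 of 81 (12.3%), against 13.7% of genes. These included Sdha (-0.25), Ndufs1 (-0.22), Atp5a1 (-0.17) and Atp5b (-0.15). Uqcrb (-0.04), Atp5j (-0.07) and Ndufa1 (-0.02) were among those with little difference.

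Averaged over both treatments, with 6 AB mice and 6 sham-operated mice, 7 members were called, all lower. They included Sdha (-0.46 ± 0.09 (SE), adjusted p = 0.0115), Cox7a1 (-0.38 ± 0.08 (SE), 0.0122), Cox6b2 (-0.64 ± 0.13 (SE), 0.0125), Atp5b (-0.24 ± 0.06 (SE), 0.0241), Ndufv1 (-0.27 ± 0.07 (SE), 0.0296) and Atp5a1 (-0.24 ± 0.06 (SE), 0.0428). This is 8.24% of the members, against 3.87% of all genes called lower and 7.39% called in either direction. At a mean of at least 100 FPKM it is 6 of 81 members (7.41%), against 7.24% of genes, a share near the background. An unadjusted p under 0.05 was found for 20 members (23.5%, against 23.3% of all genes), and at that level for 19 of 81 (23.5%, against 32.8% of genes). In 7 members, 8.24%, all 6 AB mice were below all 6 sham-operated mice, against 2.8% of all genes. All 7 had a mean of at least 100 FPKM, which makes 8.64% of the 81 members at that level, against 6.83% of genes. Ndufs1, Sdha, Cox7a1, Cox7b, Atp5a1 and Atp5b were among them. The median over the members was -0.094 and over all genes -0.026. With 1 mouse left out the median over the members ran from -0.12 (without Hispidulin+AB 1) to -0.057 (without Hispidulin+AB 3). Sdha, Cox7a1 and Cox6b2 remained called under each alternative that could be run. The count of 7 was the same without the third DMSO+AB mouse and fell to 3 without DMSO+Sham 1, DMSO+AB 2, Hispidulin+Sham 1, Hispidulin+AB 2 or Hispidulin+AB 3, and to 4 without Hispidulin+Sham 2, Hispidulin+Sham 3 or Hispidulin+AB 1. The largest rises in this average, Ndufa11 (0.15) and Cox6a1 (0.15), were not called. Of all 12 mice, Ndufa11 was lowest in the third DMSO+Sham mouse (85.03 FPKM) and Cox6a1 in the third Hispidulin+AB mouse (173 FPKM).

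**Figure D5:**
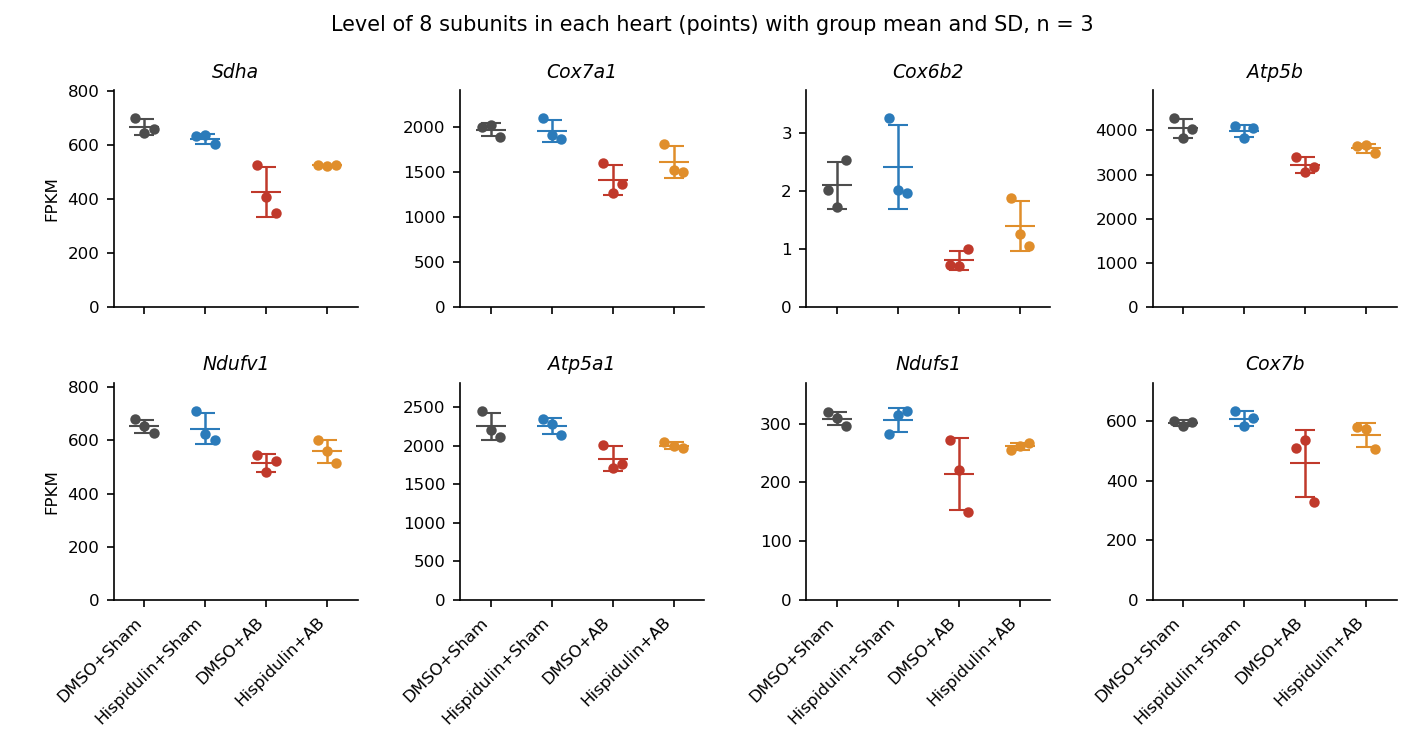
FPKM (y axis, from 0) of 6 members called over both treatments, of Ndufs1 and of Cox7b in each heart (points), by group (x axis), with bars for the mean and SD of 3 mice. In Sdha, Cox7a1, Atp5b, Atp5a1, Ndufs1 and Cox7b all AB hearts lie below all sham-operated hearts.

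The effect of hispidulin under load was then examined. Compared with DMSO+AB, 68 of the 85 members were higher and 17 lower in Hispidulin+AB, with a median of 0.086 against 0.0047 over all genes. No member and no other gene was called by limma (0%). An unadjusted p under 0.05 was found for 2 members (2.35%), against 3.1% of all genes. They were Sdha (0.32 ± 0.12 (SE), unadjusted p = 0.0238, adjusted p = 0.996) and Cox6b2 (0.40 ± 0.18 (SE), unadjusted p = 0.0448, adjusted p = 0.996). Without the third DMSO+AB mouse the difference was 0.18 for Sdha and 0.47 for Cox6b2. For Sdha it was 0.60 within the lower series of animal numbers (1 mouse against 1) and 0.18 within the higher (2 against 2). Among the other members the highest were Ndufs1 (0.33), Uqcrb (0.31) and Ndufa5 (0.31), and the lowest Cox6a1 (-0.23), Cox4i2 (-0.20, and -0.048 without the third DMSO+AB mouse), Ndufa11 (-0.13, and -0.068 without it), Ndufb4c (-0.13, and -0.057 without it) and Cox8a (-0.12). In 5 members, 5.88%, all 3 Hispidulin+AB mice were above all 3 DMSO+AB mice, against 4.23% of all genes: Ndufa3, Atp5b, Atp5k, Cox6b2 and Cox5b. At a mean of at least 100 FPKM these were 4 of 81 (4.94%), against 4.1% of genes. Ndufa3, an accessory subunit of complex I, was at 812, 814 and 771 FPKM in DMSO+AB and at 954, 924 and 845 in Hispidulin+AB (0.18 ± 0.09 (SE)). The median moved to 0.025 without the first Hispidulin+AB mouse and to 0.14 without the third. It was 0.14 between the 2 mice of each group in the higher series of animal numbers and -0.054 between the single mice of the lower series.

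Comparisons with DMSO+AB share the third DMSO+AB mouse, so the subunits that the study followed by qPCR are given for both with and without it. These 13 were Ndufa1, Ndufa3, Ndufa4, Ndufa5, Ndufs1, Uqcrb, Uqcrc2, Atp5a1, Atp5b, Atp5j, Atp5md, Atp5o and Atp5pb, and since the study may have chosen them on these samples, their direction is not independent evidence. All 13 were lower in DMSO+AB than in DMSO+Sham, with a median of -0.30, of which Atp5b was called, and with hispidulin after AB all 13 were higher than with DMSO, with a median of 0.20, of which none was called. Without the third DMSO+AB mouse, 12 of 13 were lower with a median of -0.16, and all 13 were higher with hispidulin with a median of 0.098. Ndufa1 was at 325, 349 and 202 FPKM in DMSO+AB and at 386, 351 and 295 in Hispidulin+AB, a difference of 0.27 with the third DMSO+AB mouse and 0.021 without it. For Uqcrb the difference went from 0.31 to 0.044, for Ndufs1 from 0.33 to 0.091, for Ndufa5 from 0.31 to 0.11 and for Atp5j from 0.28 to 0.092. For Atp5b it was 0.16 with that mouse and 0.16 without it. Over all 85 members the median went from 0.086 to 0.077. With GC content regressed out of each library, no member was called in this comparison.

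The effect of hispidulin without load was read from the sham-operated mice. Compared with DMSO+Sham, 66 members were higher in Hispidulin+Sham with a median of 0.037 (-0.0072 over all genes), none was called, as for all genes (0%), and none had an unadjusted p under 0.05 (2.46% of all genes). The direction rested on single mice: 35 were higher with a median of -0.014 without the third DMSO+Sham mouse, and 40 with a median of -0.0012 without the first Hispidulin+Sham mouse. In 2 members, Cox8a and Ndufb10, all 3 Hispidulin+Sham mice were above all 3 DMSO+Sham mice (2.35%, against 2.77% of all genes). Sdha was the 1 member in which all 3 lay below (1.18%, against 2.83%), at 699.7, 644 and 659.8 FPKM in DMSO+Sham and 633, 637 and 603 in Hispidulin+Sham (-0.10). The ends of the range were Ndufa4l2 (0.33, and -0.020 without the third DMSO+Sham mouse) and Ndufb4c (-0.21, and close to 0 without the second DMSO+Sham mouse). Averaged over both operations, 73 of 85 members were higher with hispidulin with a median of 0.058 (-0.0034 over all genes), and none was called (0% of all genes) or had an unadjusted p under 0.05 (2.97%). The median was 0.033 without the first Hispidulin+AB mouse (67 higher) and 0.096 without the third (83 higher). The largest difference in this average was that of Cox6b2 (0.26, adjusted p = 0.999). Whether the change under AB differed between hispidulin and DMSO was tested as an interaction. None of the members and none of the other genes passed (0%), and 1 member had an unadjusted p under 0.05 (1.18%, against 2.48% of all genes). This was Sdha, whose difference after AB was smaller with hispidulin by 0.42 ± 0.18 (SE) (unadjusted p = 0.0349, adjusted p = 1), and by 0.28 without the third DMSO+AB mouse. At the other end were Ndufa4l2 (-0.42, and -0.077 without the third DMSO+Sham mouse) and Cox6a1 (-0.35, and -0.20 without the third Hispidulin+AB mouse).

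Genes around the chain were read from lists. Of 16 genes for electron carriers and for entry of electrons into ubiquinone, 12 were lower in DMSO+AB and 3 were called, all lower, with a median of -0.21. Of all genes 2.71% were called lower, and 5.05% of those with a mean of at least 100 FPKM. The called genes were Etfa (-0.58 ± 0.15 (SE), adjusted p = 0.0426, and -0.38 without the third DMSO+AB mouse) and Etfb (-0.55 ± 0.13, adjusted p = 0.0334), which carry electrons from fatty acid oxidation, and Coq8a (-0.50 ± 0.10, adjusted p = 0.0197), which is needed to make ubiquinone. Cycs, the cytochrome c gene, differed by 0.021, and by 0.16 without that mouse. Of 6 carriers and channels for adenine nucleotides and phosphate, Slc25a5, an adenine nucleotide translocator of many tissues, was called higher (0.34 ± 0.08, adjusted p = 0.0335, where 2.5% of all genes and 5.05% of those with a mean of at least 100 FPKM were called higher), and Slc25a4, the muscle form, differed by -0.12, and by -0.039 without that mouse. Of 11 regulators of mitochondrial biogenesis, 10 were lower with a median of -0.16 and none was called. Ppara differed by -0.37 and Esrrb by -0.37. Ppargc1a differed by 0.0044, and by 0.25 without the third DMSO+AB mouse, and Sirt1 by -0.26, and by -0.069 without it. After AB none of the genes on these lists was called between hispidulin and DMSO, as for all genes (0%).

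Of the markers of other cell types, 2 of 6 for fibroblasts and 1 of 6 for pericytes (Higd1b) were called higher in DMSO+AB, against 2.5% of all genes, and 0 of those for endothelial, smooth muscle, macrophage, atrial, fat and red cells. None was called between the hispidulin groups, as for all genes (0%). The 6 fibroblast markers (Col1a1, Col1a2, Col3a1, Pdgfra, Dcn and Lum) all had higher means in DMSO+AB, with a median log2 difference of 1.33. All 6 were also higher in Hispidulin+AB than in Hispidulin+Sham, with a median of 0.38. Their FPKM summed to 335.5 to 432 in DMSO+Sham, 339 to 465 in Hispidulin+Sham, and after AB to 378 to 795 with DMSO and 384 to 598 with hispidulin. The mouse with the highest sum, the second DMSO+AB mouse, also had the lowest Cox7a1 (1273 FPKM) and Ndufv1. The 6 pericyte markers were divided, 3 higher and 3 lower with a median of -0.057, and their sums were 227 to 257 in DMSO+Sham and 252, 187.8 and 176.9 in the DMSO+AB mice. Of the 7 cardiomyocyte markers 5 were lower in DMSO+AB with a median of -0.21, and 1, Ryr2, was called. Their sum was 43853 to 48666 in DMSO+AB and 36118 to 53244 in DMSO+Sham, where the lowest sum belongs to the third mouse, with 2741 FPKM of Actc1 against 7909 to 11562 in the others. The part of cell composition in the results above was not tested. The mice also fall into a lower and a higher series by animal number, whose meaning the labels do not give, and within a series the median difference of the members between DMSO+AB and DMSO+Sham was -0.15 in the lower (1 mouse against 1) and -0.040 in the higher (2 against 1), with the first DMSO+Sham mouse in neither. Between Hispidulin+AB and Hispidulin+Sham it was -0.22 in the lower (1 against 2) and 0.043 in the higher (2 against 1). Between the DMSO groups it was -0.89 and -0.51 for Sdha, -0.56 and -0.40 for Cox7a1 and -0.45 and -1.05 for Cox6b2 in that order. With the series as a covariate, a fit in which the first DMSO+Sham mouse is set aside, no member was called in DMSO and 3 were called over both treatments.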

How the data were processed

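Left ventricular muscle RNA of 12 mice was selected with oligo(dT) and read as single ends of 50 bases on a BGISEQ-500. The authors deposited 1 table of FPKM per gene and mouse, normalised for transcript length and library size and rounded to 0.01. The submitters' processing notes name HISAT2 2.0.4, Bowtie2 2.2.5, RSEM 1.2.12 and DESeq2 1.4.5. The genome build is not given in the sources used here. Without read counts the depth is unknown and no counting interval can be given.

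Gene IDs were matched to RefSeq symbols (17947 of 18079). Genes that reached 1 FPKM in 3 or more mice were kept, log2(FPKM + 1) was fitted with limma 3.58.1 (R 4.3.3, trend, all 4 groups sharing 1 estimate of the spread), and p-values were adjusted over all genes kept. Adding 1 understates differences of low genes such as Cox6b2. The fit was checked on simulated data. Ratios and figures were made in Python 3.11.15. Members and lists were chosen with earlier results of these data known. Members were named where they were called, among the 5 largest rises or falls of a comparison, a tissue form or its common form, a core subunit of complex I, a subunit of complex II, one the study followed by qPCR, or of highest or lowest level in a complex. Others, such as Cox7b and the ends of a list, were named after their values were seen. One member counted in the totals is not reported here by itself.

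Alternatives were another added value, median-of-ratios scaling, a fixed sum per library, a stricter filter (5 FPKM) or none, the replicate number as a block, the animal number series as a covariate, only the libraries compared, no trend, library weights and each mouse left out. Removal of GC content was added after seeing the data. Mice are separate animals. The deviations of same-numbered mice correlated by -0.198 to -0.024 between the DMSO groups and -0.183 to 0.3 between the AB groups, so the numbers were not taken to pair these. Between the hispidulin groups (0.147 to 0.228) and the sham groups (0.126 to 0.33) every pair exceeded 0.1, and the block was read there too.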

Additional observations from a re-analysis of the deposited data

How the results depend on the processing

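The 4 members called between DMSO+AB and DMSO+Sham became 1 with no filter, 2 with median-of-ratios scaling, 0 with the animal number series or with only the libraries compared, 9 with library weights, and 0 to 6 with 1 mouse left out. The 7 called over both treatments became 3 with no filter, with median-of-ratios scaling or with the series, 13 with library weights, and 3 to 8 with 1 mouse left out. The Cox7a ratio differed by -0.2209 with the series (exact permutation p = 0.0556). The Cox6a ratio differed by -0.2653 with median-of-ratios scaling (exact permutation p = 0.05), -0.2129 with the series (exact p = 0.241) and -0.2317 with GC content removed (exact p = 0.07), and by -0.319 to -0.2128 with 1 mouse left out (exact p = 0.035 to 0.11). In the same way the Cox4 ratio ran from -0.0462 to 0.1445 (also -0.0457 and -0.0091), the Ndufa4 ratio from -0.0258 to 0.2752, and the Atp5g3 to Atp5g2 ratio from 0.0632 to 0.1373. The last differed by 0.19 with GC content removed (exact permutation p = 0.04). Over all genes and both treatments, median-of-ratios scaling turned 411 higher and 451 lower calls into 457 and 334. The causes were not tested. The other 5 comparisons had 0 members called under each alternative run. Depth is unknown, so a missed call does not show that a subunit did not differ.

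With the replicate block 6 members were called in DMSO and 7 over both treatments, and the Cox6a ratio differed by -0.2654 (exact permutation p = 0.0938). In DMSO 0 of 3 same-numbered pairs correlated over 0.1. Between the hispidulin groups and between the sham groups, where all 3 did, the block left 0 members called.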
